A study of Mus musculus with 84 samples.

Results

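Pcdh7, Hnf4a, Slc16a11, Ednra, Ehd3 and Chga are 6 genes followed here across sorted blood progenitors of mice with a tetracycline-regulated MLL-ENL transgene and of control mice labelled wild type. They were selected on measured values, because each was higher in MLL-ENL or MLL-ENL (x2) libraries in several populations. They are 6 of the 41388 mouse genes in the count table, and all 6 had enough reads to be tested in every comparison. The choice used the genotype comparisons, so the differences between genotypes below describe the members and carry no test. Comparisons among control libraries were not part of the rule and were tested. The same control libraries were the reference of the rule, however, so low control values favoured the choice, and the tests among controls are not fully independent of it.

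The 84 libraries, 43 of them from controls, formed 22 groups. HPC (committed hematopoietic progenitors), pGM (pre-granulocyte-monocyte progenitors) and GMP (granulocyte-monocyte progenitors) were sorted, without doxycycline, from newborn liver (P0) and from the bone marrow of mice aged 10 weeks, under a label of fetal induction. HPC alone came from bone marrow at 6 and 12 months after 8 weeks of doxycycline, under a label of adult induction. A further set at 10 weeks held MLL-ENL (x2) mice and control mice, assigned to it by the format of their identifiers. Neither the meaning of x2 nor the promoter driving the transgene is stated in the labels. Groups had 4 libraries, apart from 3 in the P0 pGM controls and in each MLL-ENL (x2) group.

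MLL-ENL joins the amino-terminal part of KMT2A (MLL), a histone methyltransferase of the HOX loci, to MLLT1 (ENL), a reader protein that works with the elongation machinery. Such fusions hold genes like the later HOXA genes and MEIS1 in an active state and occur in acute leukemias. The 6 members belong to unrelated families. Pcdh7 encodes a protocadherin, a cell-surface adhesion protein, and Ednra the endothelin A receptor, a G protein-coupled receptor of vascular smooth muscle. Slc16a11 encodes a member of the monocarboxylate transporter family, Ehd3 an ATPase that shapes membranes during endosomal recycling, and Chga chromogranin A, a protein of the dense core granules of endocrine cells and neurons. Hnf4a encodes a nuclear receptor that controls liver, gut and pancreatic gene programs.

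All 6 are protein-coding genes on different chromosomes (GENCODE vM21 positions, GRCm38). Pcdh7 lies at chr5:57717967-58133230 on the plus strand, a span of 415.3 kb with 7 merged exons. The plus strand also holds Hnf4a (chr2:163506808-163572910, 13 merged exons), Slc16a11 (chr11:70212752-70216417, 4), Ehd3 (chr17:73804134-73832094, 6) and Chga (chr12:102554969-102565028, 8). Ednra lies on the minus strand at chr8:77663031-77724464, with 8 merged exons. Exons of Pcdh7 overlap the antisense transcript 4932441J04Rik and exons of Ednra overlap 4933431K23Rik, on the opposite strand. How the counting treated strand is not stated, so reads of these pairs cannot be told apart.

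Slc16a11, Ehd3, Chga and Hnf4a had pairwise correlations of 0.51 to 0.87 across the libraries, as given further on, and Pcdh7 had 0.07 to 0.55 with them. Their RefSeq promoter windows (GRCm38.p6), from 250 bases before to 50 bases after the transcript start, are printed 5′ to 3′ on the gene's strand with every CpG in capitals, because CpG content differs widely among them. The choice of windows was made after the values were seen, and CpG content did not follow the correlations, since Hnf4a had the fewest. The windows are chr11:70213660-70213959 for Slc16a11, chr17:73804591-73804890 for Ehd3, chr12:102554691-102554990 for Chga, chr2:163506607-163506906 for Hnf4a (the first of 2) and chr5:57717831-57718130 for Pcdh7, all on the plus strand. The starts of Slc16a11, Ehd3, Hnf4a and Pcdh7 lie inside their GENCODE gene spans, and that of Chga lies just before its span.
Slc16a11: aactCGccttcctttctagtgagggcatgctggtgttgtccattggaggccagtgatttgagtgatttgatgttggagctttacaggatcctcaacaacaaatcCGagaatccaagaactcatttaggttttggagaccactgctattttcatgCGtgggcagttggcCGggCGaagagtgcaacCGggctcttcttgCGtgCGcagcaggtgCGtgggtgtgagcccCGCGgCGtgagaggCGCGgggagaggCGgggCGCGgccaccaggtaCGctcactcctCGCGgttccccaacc
Ehd3: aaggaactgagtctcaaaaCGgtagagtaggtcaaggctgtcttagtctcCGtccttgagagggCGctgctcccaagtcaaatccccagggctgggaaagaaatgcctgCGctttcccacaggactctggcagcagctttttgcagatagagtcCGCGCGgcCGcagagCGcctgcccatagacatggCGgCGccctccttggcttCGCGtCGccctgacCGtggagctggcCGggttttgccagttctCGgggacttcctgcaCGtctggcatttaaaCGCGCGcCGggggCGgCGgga
Chga: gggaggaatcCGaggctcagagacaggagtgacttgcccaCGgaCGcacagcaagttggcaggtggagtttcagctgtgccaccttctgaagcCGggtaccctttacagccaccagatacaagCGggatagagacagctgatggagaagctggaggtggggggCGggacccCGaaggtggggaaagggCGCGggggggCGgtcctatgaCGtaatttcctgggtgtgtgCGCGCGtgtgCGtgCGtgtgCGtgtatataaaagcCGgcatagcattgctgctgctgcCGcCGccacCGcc
Hnf4a: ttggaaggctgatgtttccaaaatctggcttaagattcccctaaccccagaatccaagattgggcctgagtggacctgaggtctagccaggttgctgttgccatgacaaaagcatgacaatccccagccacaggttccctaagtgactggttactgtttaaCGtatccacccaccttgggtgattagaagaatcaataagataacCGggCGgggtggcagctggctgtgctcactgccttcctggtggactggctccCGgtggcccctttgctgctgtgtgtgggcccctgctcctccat
Pcdh7: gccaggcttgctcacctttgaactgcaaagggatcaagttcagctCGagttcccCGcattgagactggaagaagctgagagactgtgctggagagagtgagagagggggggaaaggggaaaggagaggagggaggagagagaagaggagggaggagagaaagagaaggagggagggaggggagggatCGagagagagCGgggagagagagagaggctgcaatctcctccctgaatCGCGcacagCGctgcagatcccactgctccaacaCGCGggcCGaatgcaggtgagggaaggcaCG

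The window of Ehd3 held 24 CpG, that of Chga 21 and that of Slc16a11 20, against 11 in Pcdh7. Ednra had 8, and each of 2 windows of Hnf4a had 4. Over all 32851 RefSeq windows the median was 7, so Ehd3 stood at the 80th percentile, Chga at the 75.2nd, Slc16a11 at the 73.5th, and Hnf4a at the 31.4th. Motifs were searched on both strands, and no motif searched holds another. The TATA box, TATAAA, was found in the Chga window, as in 13.6% of all windows, and in no other member window. The others were found in none of the 7 member windows. They were the composite motif of HOX and MEIS proteins, TGATTTAT, held by 0.977% of all windows, and the core of the MEIS site, TGACAG, held by 19.2%. The core of the GATA factor site, GATAAG, occurs in 7.44% of windows, and that of the RUNX site, TGTGGT, in 16.8%. The core of the HNF4A site, CAAAGTCCA, occurs in 0.475%. No match says only that these letters are absent there.

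Libraries held 7619515 to 29470068 mouse counts. The reads on the MLL-ENL fusion line, 1 of the 3 transgene lines, were compared with the genotype labels. MLL-ENL groups averaged 1.77 to 15.6 CPM (the counts-per-million scale, relative to the mouse counts of the library), and no control library exceeded 0.625. The libraries did not separate fully, since 10 week MLL-ENL GMP library 74 had 0.442 CPM (6 reads). Nothing in the labels says that replicates came from separate animals, though the identifiers differ, so p-values measure the spread between these libraries. Among the 10 week MLL-ENL libraries, the 2 labelled 73 HPC and 73 pGM stood apart. On the mean of 50 genes high in HPC minus the mean of 50 genes high in pGM (log2 CPM, members left out), 73 HPC scored -1.78 where the other MLL-ENL HPC scored 2.43 to 2.94. The library labelled 73 pGM scored 2.80 where the others scored -2.43 to -1.90. Each of the 2 therefore went against its label, and 10 week fold changes of the members in HPC and pGM are given with and without them.

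The word ectopic did not hold for most members in these cells, since control libraries had reads for each. Pcdh7, Hnf4a and Ehd3 had reads in 43 of 43 control libraries, Ednra in 42, Slc16a11 in 41 and Chga in 31. Per kilobase of exon, Hnf4a stood at the 86.4th percentile of the genes detected in P0 control HPC and at the 84.4th in 10 week control HPC. Slc16a11 reached the 77.8th percentile in 10 week control HPC. Chga was at the 52.9th percentile in P0 control HPC and had 0 reads in the 10 week control GMP of the first set, against 2 reads in the control GMP of the x2 set.

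Across the 11 genotype comparisons the members were mostly higher in MLL-ENL, and none passed the threshold downward (edgeR quasi-likelihood F test, Benjamini-Hochberg FDR 0.05 over all genes of the fit). The choice of members fixed these counts, so each stands beside the share of all tested genes called higher, and nothing is read from it. In P0 HPC 5 of the 6 were called, all but Ehd3, where 2.42% of all genes were. In P0 pGM the same 5 were called (0.161% of all genes), with the call of Chga resting on 1 read in the controls. In P0 GMP 2 were called, Pcdh7 and Hnf4a (0.0805%). At 10 weeks the counts were 2 in HPC, Pcdh7 and Ehd3 (0.121%), 3 in pGM, Hnf4a, Slc16a11 and Ehd3 (0.0537%), and 0 in GMP (0.0134%; 3 at an unadjusted p under 0.05, and 0 by DESeq2). Without both libraries labelled 73 the 10 week HPC count stayed at 2 and the pGM count was 1, Ehd3. Single libraries moved some counts: P0 pGM had 2 without control 3 and 3 without control 2, 10 week HPC 1 without control 76, 80 or 88 or MLL-ENL 81, and 10 week pGM 1 without control 80 or 88 or MLL-ENL 73. In the MLL-ENL (x2) set all 6 were called in HPC (0.568%) and in pGM (0.4%), and Ednra and Ehd3 in GMP (0.266%). After adult induction 0 were called at 6 months (0.00766%) and 0 at 12 months (0.00766%). At an unadjusted p under 0.05 the 6 month count was 0 and the 12 month count 3, and DESeq2 called 0 at both ages. In bulk RNA of sorted cells, more expressing cells and more RNA per cell cannot be told apart.

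**Figure D1:**
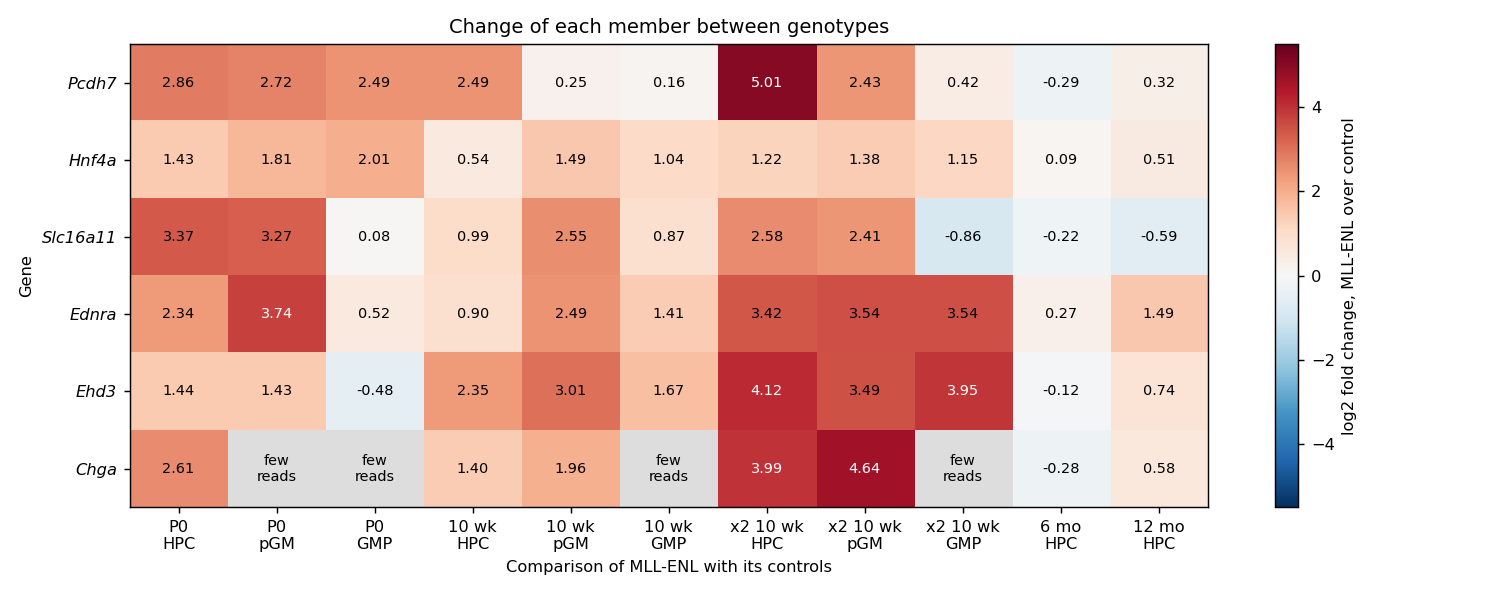
Log2 fold change of each member (rows) in MLL-ENL over control in each of the 11 genotype comparisons (columns), as a description with no test. Red is higher in MLL-ENL; grey cells mark comparisons where 1 group held fewer than 4 reads of Chga. The MLL-ENL (x2) HPC column runs from 1.22 to 5.01, and the 6 month column from -0.29 to 0.27.

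Other genes moved with the genotype beside the members. In P0 HPC, where 5.18% of all genes were called lower, 8 of 13 monocyte, macrophage and dendritic markers and 6 of 11 mast cell and basophil markers were lower in MLL-ENL. Their summed levels were 2240 to 4430 CPM against 10000 to 25400 in the controls, and 194 to 292 against 892 to 2730. Stem cell markers summed to 1470 to 2070 CPM against 803 to 1160, with 3 of 12 called higher, and megakaryocyte markers to 833 to 1410 against 507 to 763, with 1 of 10 higher (Gp9) and 1 lower (Pf4, not called with RLE scaling or without the filter). Of 9 progenitor gate markers, 4 were lower, among them Fcgr2b and Cd34, and 1 of 10 neutrophil markers was lower, Ctsg. No endothelium and stroma or erythroid marker was called there. In P0 pGM, where 0.188% of all genes were called lower, 1 of 13 monocyte markers was lower (Cd74) and 1 megakaryocyte marker higher (Gp9). In the MLL-ENL (x2) set, shares of 0.428% (HPC), 0.435% (pGM) and 0.631% (GMP) of all genes were called lower, and stem cell markers were lower in 0, 2 and 3 of 12. Stem cell sums in MLL-ENL (x2) HPC were 1460 to 1630 CPM against 1030 to 1330. The part of these cell type differences in the members' values was not tested.

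Pcdh7, the adhesion protein gene, was higher in every P0 MLL-ENL population. In P0 HPC the MLL-ENL libraries had 60.2, 62.8, 66.4 and 72.2 CPM and the controls 5.54, 7.39, 10.9 and 11.2. The groups did not overlap, and the log2 fold change was 2.86 ± 0.35 (SE), or 7.28-fold. In P0 pGM MLL-ENL libraries ran from 29.9 to 50.3 CPM against 3.73 to 7.68 (2.72 ± 0.39), and in P0 GMP from 19.3 to 26.2 against 1.70 to 5.85 (2.49 ± 0.36). Every P0 MLL-ENL library was above every control library of its population. At 10 weeks the groups stayed apart in HPC. There MLL-ENL libraries had 2.59, 5.61, 10.5 and 10.7 CPM, the lowest being the one labelled 73, against 0.689 to 2.01 in the controls. The log2 fold change was 2.49 ± 0.38, and 2.77 without both libraries labelled 73. In 10 week pGM (2.26 to 3.90 against 2.44 to 3.06 CPM) and GMP (0.265 to 1.13 against 0.236 to 0.910) the ranges overlapped, with log2 fold changes of 0.25 ± 0.36 (0.12 without the libraries labelled 73) and 0.16 ± 0.51.

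In the MLL-ENL (x2) set Pcdh7 stood at 16.6, 17.4 and 21 CPM in HPC against 0.297, 0.317, 0.569 and 1.11 in the controls. That was the highest fold of any member in any genotype comparison with 4 or more reads in each group, with a log2 fold change of 5.01 ± 0.51. With the 10 week controls of both sets pooled it was 4.30. In pGM the 3 MLL-ENL (x2) libraries (8.60, 9.18 and 12.2 CPM) were also above all controls (1.30 to 2.18), with a log2 fold change of 2.43 ± 0.45. In GMP 1 library reached 3.81 CPM and the others 0.405 and 1.10, inside or below the control range of 0.958 to 1.64. The GMP value of 0.42 ± 0.49 became -0.81 without that library. After adult induction the groups overlapped at both ages, with means of 1.07 ± 0.212 (SD, n = 4) against 1.29 ± 0.472 CPM at 6 months and 1.52 ± 0.325 against 1.19 ± 0.462 at 12 months. Ordered by mean over all 22 groups, Pcdh7 ran from 65.4 CPM in P0 MLL-ENL HPC to 0.574 in the control HPC of the x2 set, and 17 of the 21 neighbouring pairs overlapped.

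Among controls Pcdh7 was lower at 10 weeks than at P0 in HPC and GMP. HPC had 5.54 to 11.2 CPM at P0 and 0.689 to 2.01 at 10 weeks, and the log2 fold change was -2.72 ± 0.38 (edgeR adjusted p = 1.1e-06, 4 against 4 libraries without overlap). GMP fell by 2.64 ± 0.43 (adjusted p = 2.4e-05). In pGM the difference was -1.13 ± 0.38 with an adjusted p of 0.051. It was called by DESeq2 (0.032), in the fit of all 84 libraries (0.048) and without P0 pGM control 3 (0.043), and over all alternatives the adjusted p ran from 0.032 to 0.28. P0 cells came from liver and 10 week cells from marrow, so age and tissue cannot be told apart. Across populations, Pcdh7 in 10 week controls fell by 2.02 ± 0.43 from pGM to GMP (edgeR adjusted p = 0.00076). That step was -0.52 ± 0.44 in the controls of the x2 set (adjusted p = 0.46) and -0.51 ± 0.38 at P0 (adjusted p = 0.48), with overlapping groups in both. In the controls of the x2 set it was higher in pGM than in HPC by 1.72 ± 0.49 (adjusted p = 0.023). That call was lost without library 4892 or 5899 of HPC or of pGM (adjusted p from 0.050 to 0.079, and from 0.0049 over all alternatives). The corresponding step in the other 10 week controls was 0.99 ± 0.39 (adjusted p = 0.13).

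**Figure D2:**
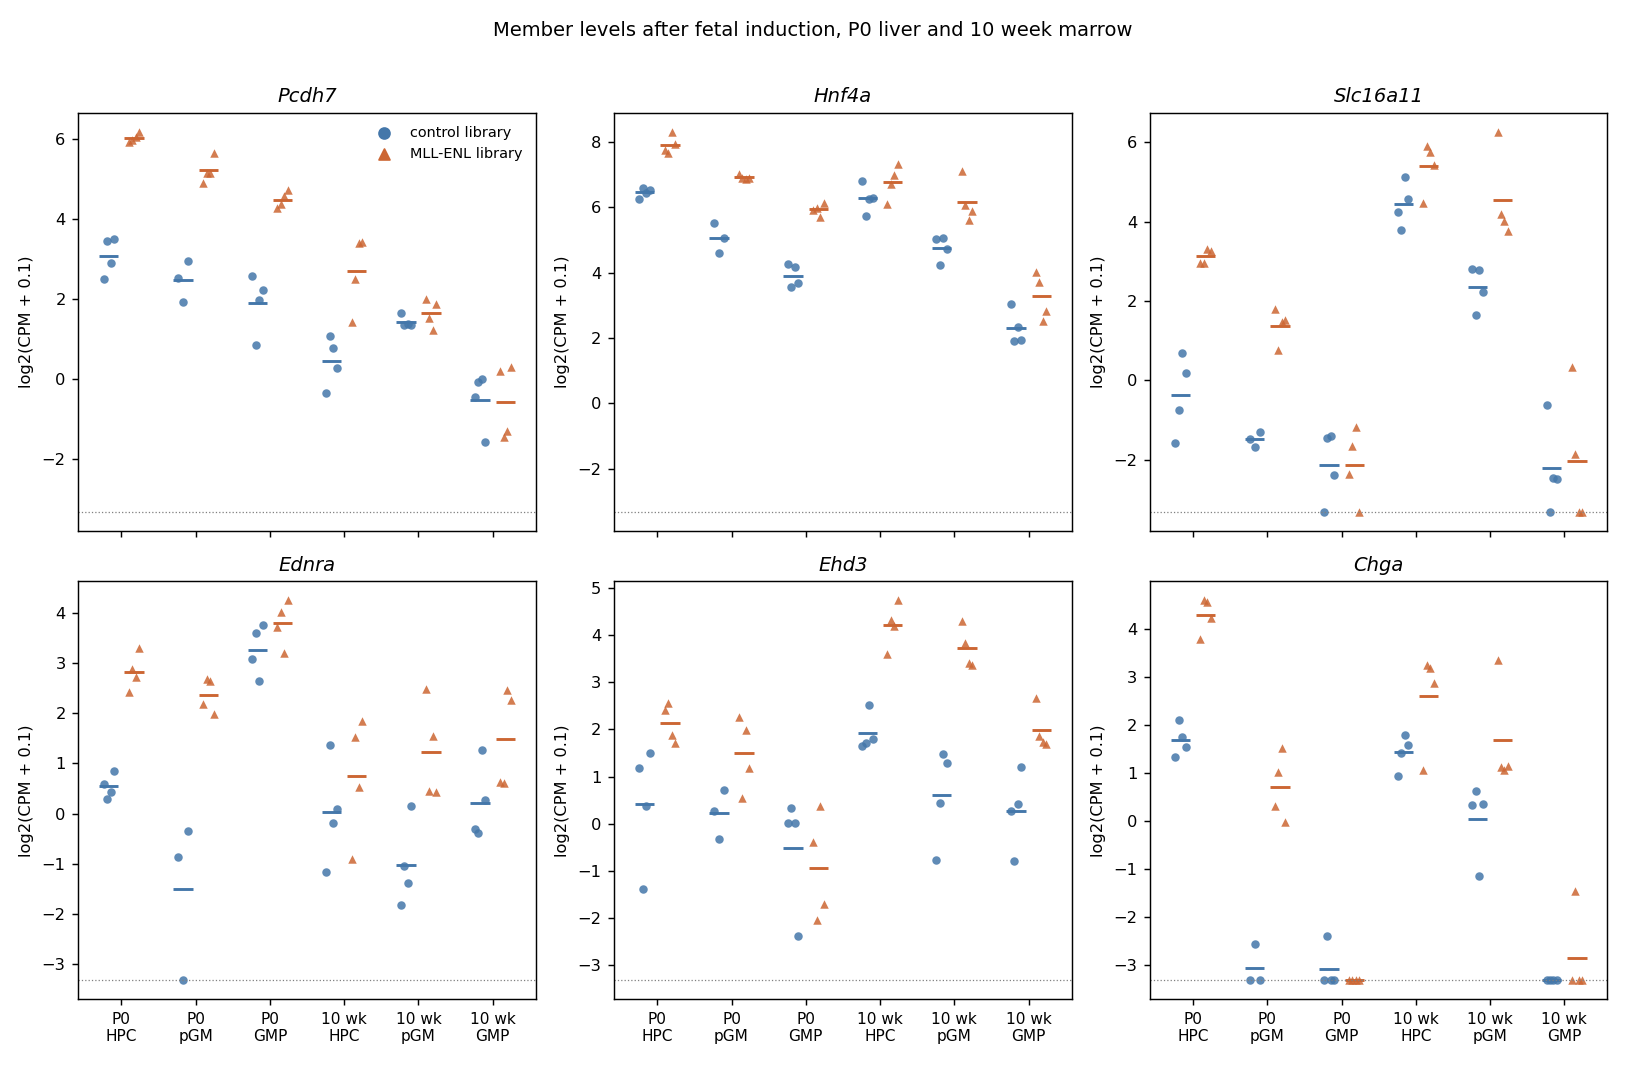
Level of each member in every P0 and 10 week library, as log2(CPM + 0.1), by population; circles are control libraries, triangles MLL-ENL libraries, bars group means of the plotted values, and the dotted line a library with 0 reads. At P0 the 4 MLL-ENL HPC libraries lie above all controls for every member, and at 10 weeks the ranges of Pcdh7 and Ehd3 stay apart in HPC. The choice of members used these comparisons. How many of all genes lie apart in this way was not counted, so nothing is read from it.

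Of 13 other nonclustered protocadherins and proteins known to bind PCDH7, 3 passed the filter on low counts in the fit of P0 and 10 week libraries. One of them, Pcdh9, was called higher in P0 MLL-ENL HPC (4.38 ± 1.21), and it was also higher in P0 control pGM than in HPC (5.22 ± 1.23). The median of the 3 in P0 HPC was -0.40, beside -0.03 over all genes. No other genotype comparison called a gene of this list. The levels most like those of Pcdh7 over the 84 libraries (Pearson r of log2 CPM among 13502 genes) belonged to Skida1 (0.898), Pde3b (0.887) and Il9r (0.859). Libraries share genotype, age and population, so these r describe the pattern only. Skida1 is a known target of MLL fusions, and it was 4.09 ± 0.49 higher in P0 MLL-ENL HPC.

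Ednra, the endothelin A receptor, had its highest control level in GMP at birth. In P0 HPC its levels were 5.24, 6.47, 7.29 and 9.76 CPM in MLL-ENL and 1.13, 1.25, 1.41 and 1.71 in controls, without overlap (2.34 ± 0.57). In P0 pGM they were 3.85 to 6.31 CPM against 0.691, 0.452 and 0 (3.74 ± 0.73, and 4.43 without control 5). P0 GMP overlapped, with 9.06 to 18.9 CPM in MLL-ENL and 6.14 to 13.4 in controls. At 10 weeks the pGM libraries of MLL-ENL had 1.24, 1.27, 2.81 and 5.47 CPM, the highest being that labelled 73, against 0.184 to 1.01 in controls. Its log2 fold change there was 2.49 ± 0.62, 1.84 without both libraries labelled 73 and 3.16 without control 88. In HPC (0.432 to 3.48 against 0.344 to 2.49 CPM, 0.90 ± 0.59, 1.22 without the libraries labelled 73 and 1.6 without control 80) and in GMP (1.42 to 5.38 against 0.666 to 2.32, 1.41 ± 0.59) the ranges overlapped.

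The MLL-ENL (x2) libraries had Ednra levels above all of their controls in all 3 populations. HPC showed 9.27, 10.2 and 22.1 CPM against 0.262 to 1.90 (3.42 ± 0.59), pGM 2.19, 3.19 and 11.4 against 0.0573 to 0.798 (3.54 ± 0.63), and GMP 8.47, 8.89 and 14.2 against 0.539 to 1.14 (3.54 ± 0.60). Library 5897 was the highest of the 3 in each population, and without it the pGM value was 2.48. At 6 months the groups overlapped (0.623 to 4.27 against 0.940 to 2.14 CPM). At 12 months 3 of 4 MLL-ENL libraries (1.28, 2.36 and 3.57 CPM) were above the highest control (1.2) and the fourth was at 0.512, with a log2 fold change of 1.49 ± 0.68. All 21 neighbouring pairs in the order of the 22 groups overlapped.

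The GMP level at birth was also seen in the tests among controls. Control GMP at P0 had 6.14, 8.33, 12.0 and 13.4 CPM, against at most 0.691 in control pGM. Ednra rose by 4.69 ± 0.74 between the 2 populations (edgeR adjusted p = 1.1e-05, 4 of 4 GMP libraries above all 3 pGM), and by 5.37 without pGM control 5. By 10 weeks control GMP had 0.666 to 2.32 CPM, a log2 fold change of -3.08 ± 0.59 (edgeR adjusted p = 0.00025). The GMP to pGM differences at 10 weeks were 1.30 ± 0.64 (adjusted p = 0.18) and, in the x2 set, 0.90 ± 0.64 (adjusted p = 0.36). In those P0 GMP controls mast cell and basophil markers summed to 4760 to 19000 CPM, against 370 to 675 in P0 control pGM, and all 11 were called higher. Of all genes 13.9% were called at this step, in either direction. At 10 weeks the control GMP sums were 1070 to 4310 CPM. The part of these cells in the level of Ednra was not tested.

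Few partners of the receptor were called. Of 7 endothelin genes other than Ednra, 4 were measured, and only Ece1, which encodes an enzyme that makes active endothelin, was called in any genotype comparison, lower in P0 HPC by 0.82 ± 0.21. The ligand Edn1 had 0 reads in the P0 HPC and in the MLL-ENL (x2) HPC and their controls, and Ednrb, the other receptor, had 0.178 to 6.11 CPM in P0 MLL-ENL HPC against 2.42 to 4.96. The genes most like Ednra were Glipr1l1 (r = 0.651), Gpr84 (0.651) and Calca (0.638), the lowest r among the members.

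Slc16a11 was low in newborn controls and higher in HPC and pGM of adult ones. P0 control HPC held 0.236, 0.496, 1.03 and 1.5 CPM (4 to 24 reads), and MLL-ENL HPC 7.68, 7.73, 9.48 and 9.80. The log2 fold change was 3.37 ± 0.59, with no overlap. In P0 pGM MLL-ENL had 1.59 to 3.36 CPM against 0.211 to 0.307 (3.27 ± 0.78). P0 GMP held 8 reads in each genotype over 4 libraries, too few to show a difference. Over the 4 P0 MLL-ENL HPC libraries the mean of 8.67 ± 1.12 CPM (SD) was below that of 10 week control HPC, 22.8 ± 9.13.

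At 10 weeks HPC overlapped, with 21.9 (library 73), 43.3, 54.3 and 60.4 CPM in MLL-ENL against 13.8, 18.8, 23.6 and 35.1 (0.99 ± 0.49, and 1.22 without the libraries labelled 73). The pGM libraries did not overlap, with 13.5, 16, 18.2 and 76.6 CPM against 3.01 to 6.86. The highest of these was the library labelled 73, and its removal with 73 HPC took the log2 fold change from 2.55 ± 0.52 to 1.57. MLL-ENL (x2) HPC had 84, 95.6 and 132 CPM against 9.19 to 24 (2.58 ± 0.37), and pGM 20, 37.6 and 42.9 against 2.75 to 10.2 (2.41 ± 0.38). GMP of either 10 week set held 22 reads or fewer in any group, and MLL-ENL (x2) GMP had 0, 0.207 and 0.289 CPM against 0.130 to 0.506. At 6 months (12.3 to 26.7 against 17.8 to 25.4 CPM) and 12 months (3.77 to 13 against 7.62 to 16.6) the groups overlapped, with log2 fold changes of -0.22 ± 0.32 and -0.59 ± 0.33. Neighbouring groups overlapped in 19 of 21 pairs, and the MLL-ENL (x2) HPC at the top stood apart from the next, 10 week MLL-ENL HPC.

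Slc16a11 changed with age and population in the controls. From P0 to 10 weeks it rose by 4.79 ± 0.61 in HPC (edgeR adjusted p = 1.3e-07) and by 4.30 ± 0.77 in pGM (adjusted p = 0.00015), without overlap in either. In GMP the difference was 0.14 ± 1.11 (edgeR adjusted p = 0.96), and -1.43 without 10 week control 76. Between populations at 10 weeks it fell by 2.10 ± 0.51 from HPC to pGM (edgeR adjusted p = 0.0083) and by 4.79 ± 0.74 from pGM to GMP (adjusted p = 8.8e-06). GMP control 76 held 7 reads and the other 3 at most 1 each, and without it the second value was -6.36. In the x2 set controls the same steps were -1.44 ± 0.35 (adjusted p = 0.0091, with overlapping groups) and -4.29 ± 0.49 (adjusted p = 9.9e-07). The mean level in the 10 week controls was 22.8 CPM in HPC, 5.29 in pGM and 0.179 in GMP.

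The family of Slc16a11 showed few calls with MLL-ENL. Of 15 other monocarboxylate transporters and chaperones, 13 were measured, and Slc16a1, the widely expressed lactate transporter, was lower in P0 MLL-ENL HPC (-1.29 ± 0.28; 8.80 to 11.6 CPM against 21.6 to 26.7). The chaperone Emb was lower in P0 pGM (-0.91 ± 0.18). The list's median in P0 HPC was -0.45 (all genes -0.03), and RLE scaling and DESeq2 each called 1 gene of the list higher there. Slc16a13, whose gene ends 0.4 kb from Slc16a11, was called in no genotype comparison. Among controls Slc16a13 rose from P0 to 10 weeks, by 0.69 ± 0.21 in HPC, 0.90 ± 0.23 in pGM and 0.86 ± 0.21 in GMP. Slc16a11, which had few reads in GMP, differed there by 0.14 ± 1.11 and was not called. Genes most like Slc16a11 were Dhrs3 (r = 0.922), Gimap7 (0.897) and Asgr1 (0.897).

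Ehd3 was higher in all 3 populations of MLL-ENL mice at 10 weeks, and at birth the groups stayed apart in HPC. In P0 HPC MLL-ENL libraries had 3.20, 3.57, 5.24 and 5.84 CPM against 0.284, 1.19, 2.18 and 2.74, a log2 fold change of 1.44 ± 0.51. P0 pGM (1.37 to 4.72 against 0.703 to 1.54 CPM) and P0 GMP (0.144 to 1.2 against 0.0919 to 1.16) overlapped. At 10 weeks HPC had 12.1 (library 73), 18.3, 20 and 26.6 CPM against 3.05, 3.16, 3.40 and 5.63 (2.35 ± 0.50, and 2.51 without the libraries labelled 73). In pGM the levels were 10.2, 10.6, 14.2 and 19.7 (library 73) against 0.490 to 2.70 (3.01 ± 0.52, and 2.76 without them). GMP had 3.15, 3.23, 3.54 and 6.27 CPM against 0.476 to 2.20, also without overlap (1.67 ± 0.53). With the controls of both 10 week sets pooled the GMP value was 2.39, and it was then called.

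In the MLL-ENL (x2) set every library was again above every control. HPC had 38.4, 48.0 and 57.8 CPM against 2.08 to 3.61 (4.12 ± 0.37), pGM 8.85, 17.9 and 22.7 against 0.698 to 2.09 (3.49 ± 0.37), and GMP 3.38, 5.15 and 6.76 against 0.130 to 0.539 (3.95 ± 0.45). The GMP value was 2.72 with the controls of both sets pooled, whose other part held 0.476 to 2.20 CPM. At 6 months Ehd3 overlapped (2.82 to 4.77 against 2.72 to 5.19 CPM). At 12 months 3 of 4 MLL-ENL libraries (6.89, 8.89 and 11.1 CPM) were above the highest control (6.28), with a log2 fold change of 0.74 ± 0.29. In 20 of 21 neighbouring pairs of groups the ranges overlapped.

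Between controls Ehd3 passed the test at 1 step. From pGM to GMP in the x2 set it fell by 2.17 ± 0.46 (edgeR adjusted p = 0.0013, 4 against 4 without overlap). The same step in the other 10 week controls was -0.43 ± 0.53 (adjusted p = 0.66). From HPC to pGM at 10 weeks the difference was -1.17 ± 0.50 (edgeR adjusted p = 0.19), and with the animal as a replicate block it was -1.29 (adjusted p = 0.023; 0.023 to 0.41 over all alternatives). From P0 to 10 weeks in HPC the difference was 1.25 ± 0.51, without overlap, at an edgeR adjusted p of 0.093 (0.041 in the fit of all 84 libraries, and up to 0.29 without P0 control 3). None of 15 related genes, which are the other EHD proteins and partners of endosomal recycling, was called in any genotype comparison by edgeR, with 14 or 15 measured. DESeq2 called 1 lower in 10 week pGM. In P0 HPC Ehd1 had 26.2 to 34.5 CPM in MLL-ENL against 11.8 to 24.1, Ehd2 1.55 to 2.47 against 0.814 to 1.35, and Ehd4 16.8 to 34.8 against 21.9 to 36.8. Next to Ehd3, 51.8 kb away, Xdh was called higher in P0 HPC (2.40 ± 0.44). Hoxb3os (r = 0.753), Uchl1 (0.727) and Unc5cl (0.723) were most like Ehd3.

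**Figure D3:**
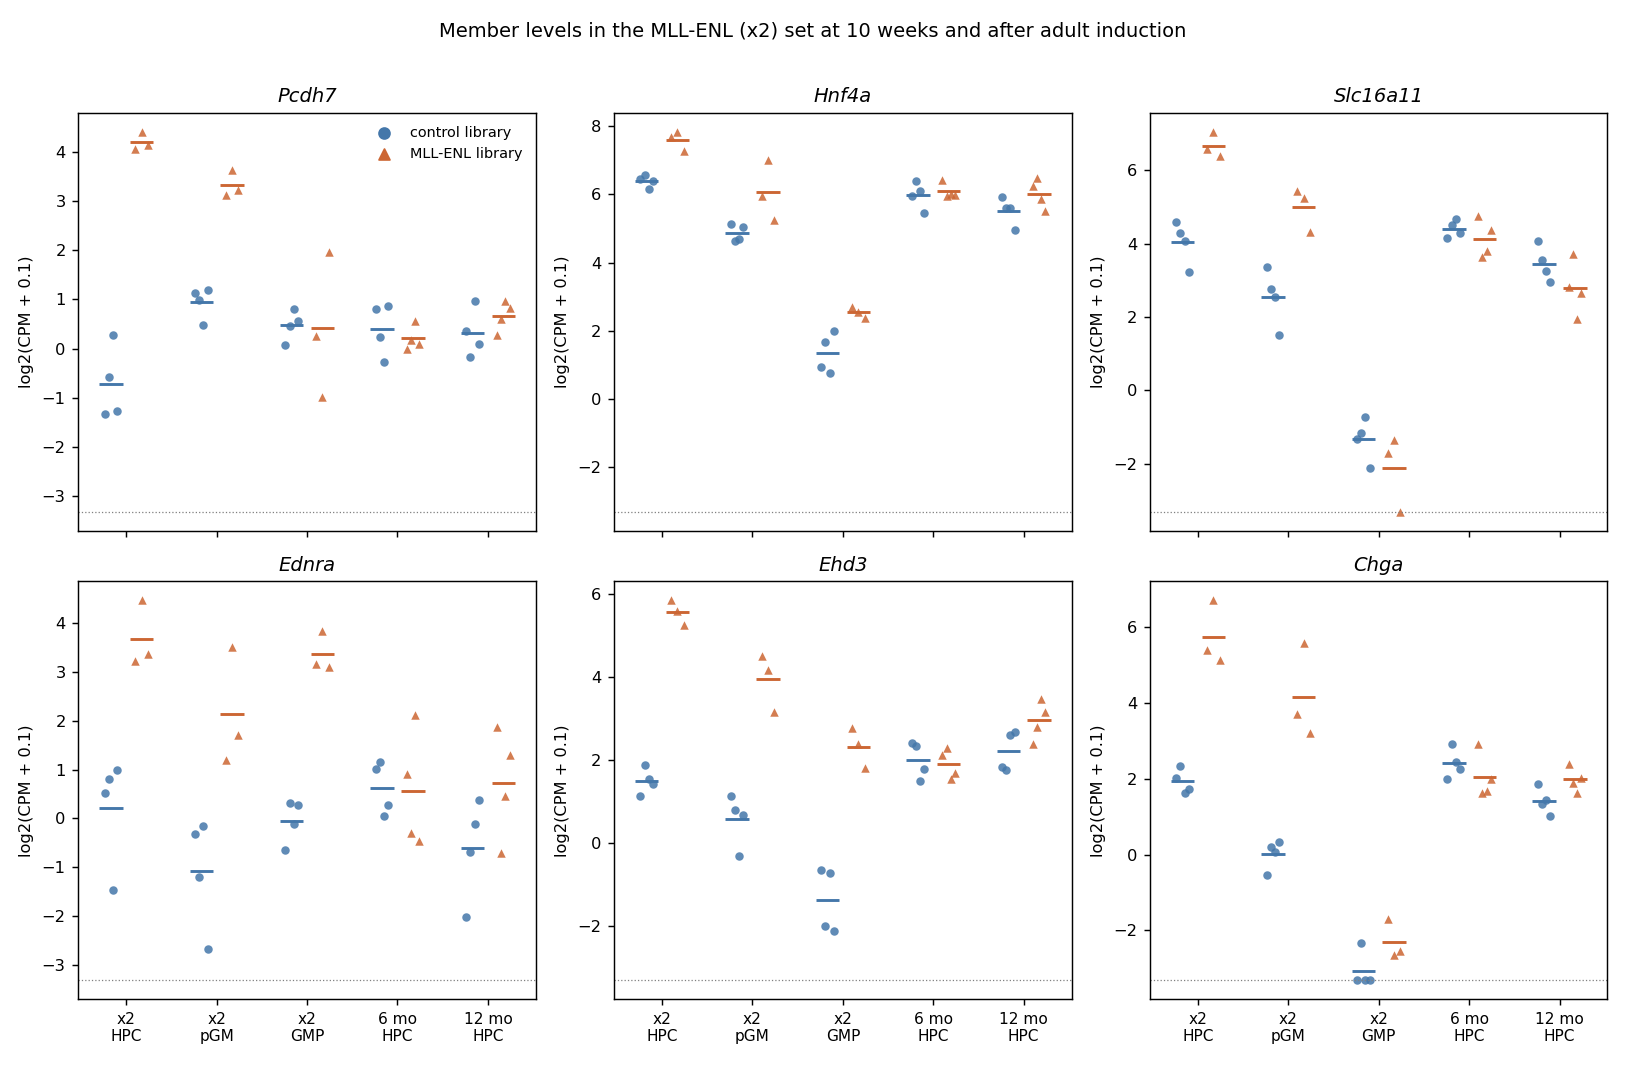
Level of each member in every MLL-ENL (x2), 6 month and 12 month library and its controls, as log2(CPM + 0.1), with symbols as for the P0 and 10 week libraries. In x2 HPC and pGM all 3 MLL-ENL libraries lie above the 4 controls for each member, while at 6 months the ranges overlap for all 6. Members were chosen by such differences, and the share of all genes that lie apart was not counted, so this describes the plot only.

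Chga was highest in HPC among the controls of each set. P0 control HPC had 2.42, 2.82, 3.26 and 4.18 CPM and MLL-ENL HPC 13.8, 18.6, 23.4 and 24.1, without overlap (2.61 ± 0.51). P0 control pGM held 1 read over 3 libraries, and MLL-ENL pGM 105 reads over 4 (0.879 to 2.79 CPM). That is a ratio of 71.7, with an exact 95% interval of 12.6 to 2860 for counting error only. P0 GMP held 0 reads in MLL-ENL and 1 in the controls, so no fold can be given. At 10 weeks MLL-ENL HPC had 1.99 (library 73), 7.28, 9.02 and 9.46 CPM against 1.82 to 3.38 (1.4 ± 0.50, and 1.70 without the libraries labelled 73). In pGM the library labelled 73 stood at 10.2 CPM and the others at 1.99, 2.09 and 2.12, against 0.355 to 1.45. All 4 were above the controls, and the log2 fold change of 1.96 ± 0.53 became 0.96 without the libraries labelled 73.

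The highest Chga levels were in MLL-ENL (x2) mice. HPC had 35.0, 41.9 and 105 CPM against 3.01 to 5 in controls (3.99 ± 0.47), and pGM 9.24, 13 and 48.0 against 0.589 to 1.15 (4.64 ± 0.51). Library 5897 was highest in both, and without it the values were 3.33 in HPC and 3.57 in pGM. GMP held 5 reads in 3 MLL-ENL (x2) libraries and 2 in 4 controls, a ratio of 3.63 with an interval of 0.594 to 38.1. At 6 months (2.97 to 7.5 against 3.93 to 7.41 CPM) and at 12 months (3 to 5.17 against 1.94 to 3.53) the groups overlapped, with log2 fold changes of -0.28 ± 0.29 and 0.58 ± 0.30. Neighbouring groups overlapped in 19 of 21 pairs.

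In controls Chga fell from HPC to pGM in the x2 set, and from pGM to GMP at 10 weeks and in the x2 set. At P0 pGM held 1 read against 185 in HPC, a level 132 times lower (exact interval 23.4 to 5250). That read, from control 3, is also the reference of the genotype ratio above, so no p is given. At 10 weeks pGM held 76 reads and GMP 0, at least 20.9-fold lower against a floor of 3 counts over the group (edgeR adjusted p = 8.9e-05). Chga was filtered out of the fits of those 2 groups alone and with the replicate block, so they give no value. The step from HPC to pGM at 10 weeks was -1.32 ± 0.53 (adjusted p = 0.15), and -1.37 with the animal as a replicate block (adjusted p = 0.046; 0.046 to 0.35 over all alternatives). In the x2 set it was -2.01 ± 0.49 (edgeR adjusted p = 0.0087). GMP of the x2 set controls held 2 reads against 72 in pGM, a level 37.9 times lower (interval 10.1 to 319, edgeR adjusted p = 0.001), and both GMP reads were in library 4894. With age, control pGM went from 1 read at P0 to 76 at 10 weeks, a ratio of 44.0 (interval 7.67 to 1760), which rests on the same read and is likewise given without a p.

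From 6 to 12 months 0 members passed the edgeR threshold in control HPC. At an unadjusted p under 0.05 there were 2, Slc16a11 (-0.91 ± 0.32, edgeR adjusted p = 0.19) and Chga (-1.01 ± 0.30, adjusted p = 0.12), and both were lower at 12 months without overlap. DESeq2 called Chga (adjusted p = 0.039), and over all alternatives its adjusted p reached 0.76. Over all genes 0.559% were called in this comparison.

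Other genes of dense core granules were rarely called with MLL-ENL. Of 17 granins and granule genes 6 were measured at P0 and 10 weeks and 7 in the x2 set, and Slc18a1, a vesicular amine transporter, was the only one called, lower in MLL-ENL (x2) HPC by 1.55 ± 0.31. Chgb, the closest relative, was at 0.258 CPM or below in P0 and MLL-ENL (x2) HPC. Among controls Slc18a1 fell from HPC to pGM (-2.11 ± 0.45 at 10 weeks) and from pGM to GMP (-2.53 ± 0.51), and Cpe, a prohormone-processing enzyme, was higher in 10 week pGM than in HPC (2.96 ± 0.88). Mecom (r = 0.919), Ddx4 (0.919) and Krt87 (0.909) were most like Chga over the libraries. Mecom, a stem cell transcription factor and MLL fusion target, had 145 to 219 CPM in P0 MLL-ENL HPC against 19.7 to 30.0.

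Hnf4a had the highest level per kilobase among the members in the P0 HPC of both genotypes, 18.1 CPM per kilobase of exon in controls and 50.4 in MLL-ENL. In P0 HPC the MLL-ENL libraries had 200, 214, 245 and 314 CPM and the controls 76.1, 87.0, 91.5 and 95.6 (1.43 ± 0.29). P0 pGM had 117, 118, 119 and 130 CPM against 24, 33.4 and 45.4 (1.81 ± 0.33), and P0 GMP 52.0 to 69.2 against 11.6 to 19.1 (2.01 ± 0.30). None of these groups overlapped. At 10 weeks HPC overlapped, with 68.7 (library 73), 104, 127 and 160 CPM against 52.5 to 112 (0.54 ± 0.29, and 0.72 without the libraries labelled 73). In pGM MLL-ENL had 48.5, 59.3, 67.1 and 138 (library 73) against 18.5 to 33.1 (1.49 ± 0.29, and 1.06 without them). GMP had 5.68 to 16 against 3.62 to 8.06 CPM, overlapping (1.04 ± 0.32).

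MLL-ENL (x2) libraries were above their controls in each population for Hnf4a. The values were 154, 208 and 228 CPM against 71.3 to 94.9 in HPC (1.22 ± 0.29), 38.3, 61.9 and 128 against 24.7 to 34.8 in pGM (1.38 ± 0.29, and 0.78 without library 5897), and 5.10, 5.73 and 6.34 against 1.58 to 3.84 in GMP (1.15 ± 0.34). With the pooled 10 week controls the GMP value was 0.59. At 6 months (62.4 to 86.1 against 43.8 to 83.3 CPM) and 12 months (45.2 to 89.1 against 31.1 to 60.3) the groups overlapped. Of the 21 neighbouring pairs of groups 20 overlapped.

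Hnf4a fell at every population step of the controls. From HPC to pGM it fell by 1.35 ± 0.32 at P0 (edgeR adjusted p = 0.0048), by 1.52 ± 0.29 at 10 weeks (0.0011) and by 1.5 ± 0.28 in the x2 set (0.00085). From pGM to GMP it fell by 1.17 ± 0.31 at P0 (edgeR adjusted p = 0.0072), by 2.46 ± 0.32 at 10 weeks (4e-07) and by 3.52 ± 0.32 in the x2 set (4.2e-08). None of the 6 steps had overlapping groups. The 2 P0 calls were lost without 1 control pGM library, the first without number 3 (adjusted p = 0.065) and the second without number 2 (0.083). Between P0 and 10 weeks HPC differed by -0.15 ± 0.28 (edgeR adjusted p = 0.79) and pGM by -0.32 ± 0.31 (0.60), while GMP fell by 1.61 ± 0.31 (0.00032).

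The liver and gut genes that Hnf4a is known for were not called with it. Of 28 partner factors and targets, 11 were measured at P0 and 10 weeks and 5 in the other sets, and edgeR called 0 of them in any of the 11 genotype comparisons. Their median in P0 HPC was -0.31, beside -0.03 for all genes. Foxa2 and Hnf4g had 0 reads in P0 HPC. Hepatocyte markers summed to 48.1 to 60.7 CPM in P0 MLL-ENL HPC and 43.9 to 64.7 in the controls, with 0 of 11 called by edgeR (1 higher with RLE scaling or DESeq2). The sums came mostly from genes of the list other than Alb, Apoa1, Ttr and Fgb, whose levels are not given singly here. Those 4 had means of 2.27, 1.62, 0.562 and 0.977 CPM in P0 MLL-ENL HPC, against 3.31, 3.26, 1.11 and 2.27 in controls. Alb had 1.4 to 3.28 CPM there against 1.94 to 4.36, and 0 reads in every library from marrow, where Hnf4a reached 228 CPM. Of the genes nearest to Hnf4a, Ttpal was called higher in P0 HPC (0.67 ± 0.21). Fxyd1 (r = 0.926) and Dok2 (0.909) were among the genes that varied most like Hnf4a.

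**Figure D4:**
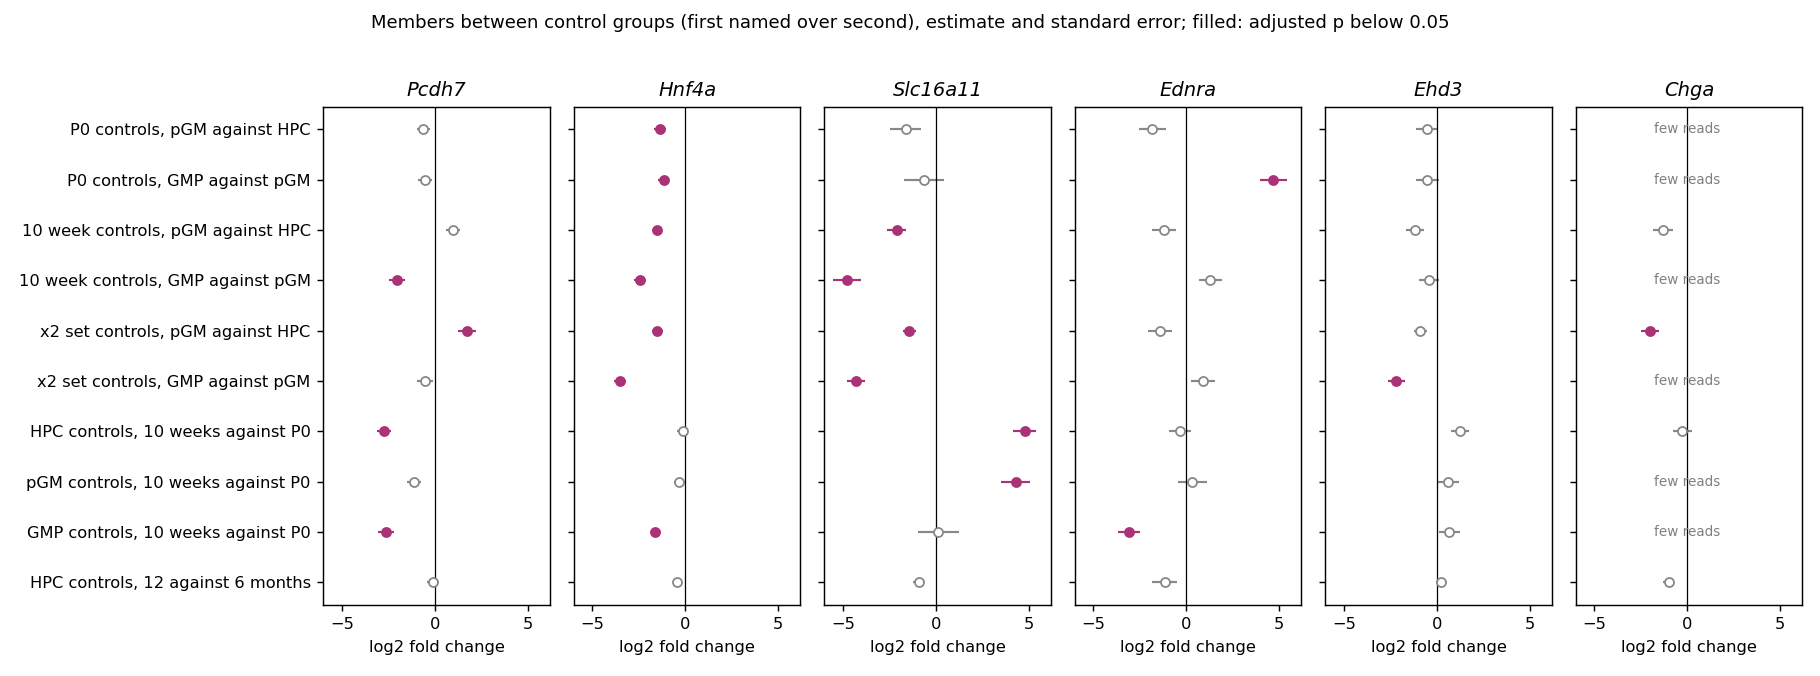
Log2 fold change with its standard error for each member in the 10 comparisons among control libraries, the first named group over the second. Filled points passed an adjusted p of 0.05 (edgeR), and text marks comparisons where 1 group held fewer than 4 reads. Hnf4a lies left of 0 at all 6 population steps, and Slc16a11 lies right of 0 from P0 to 10 weeks in HPC and pGM.

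Set against all genes, the control counts were as follows. From HPC to pGM 2 members were called at P0 (7.71% of all genes), 2 at 10 weeks (6.22%) and 4 in the x2 set (12.2%). With the replicate block the 10 week count was 4. From pGM to GMP 2 were called at P0 (13.9%), 4 at 10 weeks (15.7%) and 4 in the x2 set (22.6%). From P0 to 10 weeks 2 were called in HPC (16.3%), 2 in pGM (9.16%) and 3 in GMP (12.2%). The P0 count from HPC to pGM (Hnf4a and Chga) and the pGM count from P0 to 10 weeks (Slc16a11 and Chga) each include Chga. Both of these Chga calls rest on the lone read in P0 control pGM, so no p was given for them above. No test of the 6 genes as a list was made.

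Correlations among the members (Pearson r of log2 CPM) ranged widely and describe libraries that share genotype, age and population. Over the 84 libraries Slc16a11 and Chga had r = 0.87, Slc16a11 and Ehd3 0.72, and Ehd3 and Chga 0.70. Hnf4a had 0.79 with Chga, 0.69 with Slc16a11 and 0.51 with Ehd3. Pcdh7 had 0.07 with Slc16a11, 0.10 with Ehd3, 0.31 with Chga and 0.55 with Hnf4a, and Ednra ranged from -0.13 (Slc16a11) to 0.49 (Pcdh7). Of the 24 nearest protein-coding neighbours, 2 on each side of each member, 3 were called in a genotype comparison, all in P0 HPC. They were Ttpal and Xdh, named above, and Lgmn, 115.2 kb from Chga, which was lower (-1.71 ± 0.46). Of all genes in P0 HPC, 2.42% were called higher and 5.18% lower, and nothing is read from the count of neighbours. G6pd2, R3hdml, Ttc29, Pou4f2, Galnt14, Capn13, Srd5a2 and Gm28051 did not pass the filter on low counts in any fit and could not be called.

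The members can be set beside textbook targets of MLL fusions. Of 23 such genes, none of them a member, 18 were measured at P0 and 10 weeks and 17 in the x2 set. In P0 HPC 10 were called higher, among them Skida1, Mecom (2.75 ± 0.36) and Hoxa5 (2.14 ± 0.35), with a median of 1.15. The counts were 5 in P0 pGM and 5 in P0 GMP, 1, 1 and 0 in 10 week HPC, pGM and GMP, and 7, 3 and 5 in MLL-ENL (x2) HPC, pGM and GMP. The share of all genes called higher also differed between comparisons. In HPC, pGM and GMP it was 2.42%, 0.161% and 0.0805% at P0 and 0.121%, 0.0537% and 0.0134% at 10 weeks. In the MLL-ENL (x2) set it was 0.568%, 0.4% and 0.266%. EdgeR called 0 at 6 and at 12 months. DESeq2 called 3 in 10 week pGM and 7 in MLL-ENL (x2) pGM.

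Reads on the MLL-ENL fusion line differed between the MLL-ENL groups. This line had 15.6 ± 3.87 CPM (SD) in P0 HPC, 10.6 ± 1.4 in pGM and 5.03 ± 2.38 in GMP, and 4.62, 3 and 1.77 at 10 weeks. In MLL-ENL (x2) mice the means were 10.9, 7.56 and 6.88, and after adult induction 2.46 at 6 months and 4.04 at 12 months. Without the libraries labelled 73 the 10 week means were 4.93 CPM in HPC and 1.9 in pGM.

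**Figure D5:**
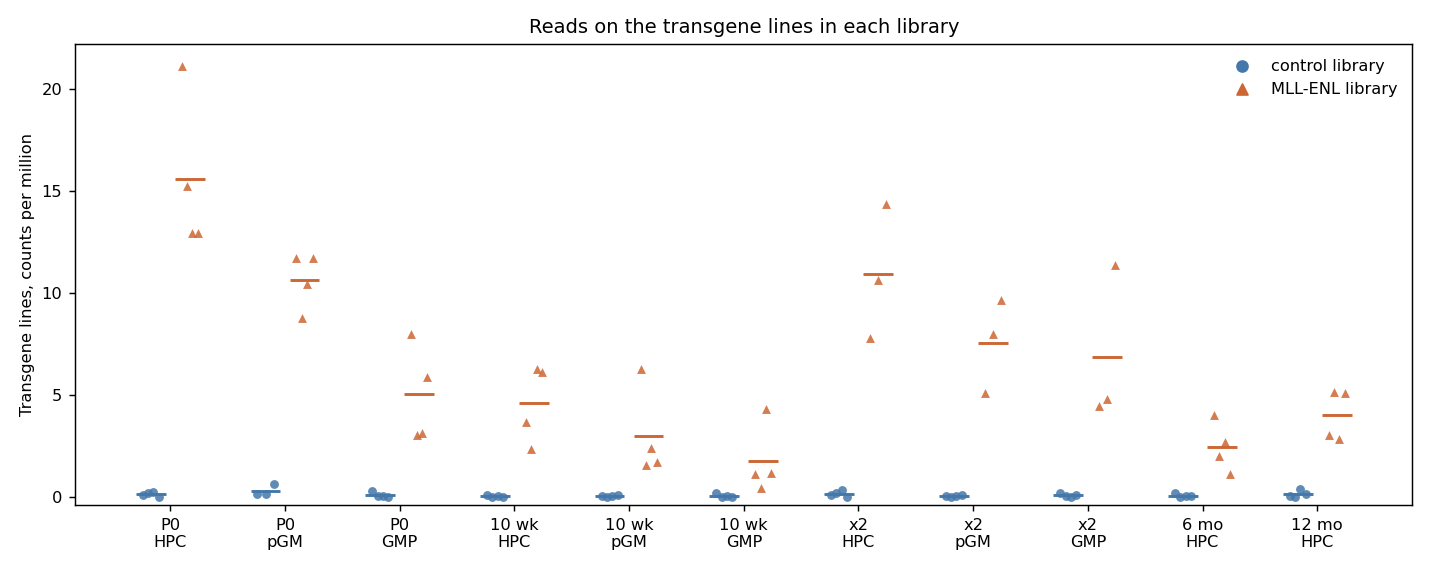
Level of the MLL-ENL fusion line alone in CPM of mouse counts in each library, by group; circles are controls, triangles MLL-ENL libraries and bars group means. All control libraries lie at or below 0.625, P0 HPC is highest at a mean of 15.6, and 6 month HPC lies at 2.46. The 10 week MLL-ENL GMP library 74 lies below the highest control, at 0.442.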

How the data were processed

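The authors deposited 1 table of raw read counts per gene (whole numbers, not normalized) for 84 libraries made, per the labels' protocols, from RNA prepared with an RNeasy micro kit and a SMARTer kit. Per the submitters' processing notes the tools were STAR 3.0.4, Subread and featureCounts 1.4.5. Build, annotation and strandedness of the counting were not given in the sources used here. Totals were 7619515 to 29470068 counts per library, and no within-group pair of 120 looked like repeat deposits of 1 library (lowest chi-square per degree of freedom 8.51). Members and gene lists were chosen with earlier results of these data known.

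Counts were fitted in edgeR 4.0.16 (R 4.3.3, limma 3.58.1) with TMM scaling, the filterByExpr filter, 1 mean per group and the quasi-likelihood F test, in 3 sets: P0 and 10 weeks (14899 genes), MLL-ENL (x2) (14260) and 6 and 12 months (13059). P-values were adjusted by Benjamini-Hochberg over all genes of a fit at FDR 0.05, and the SE is the log2 fold change divided by the root of F. The 3 transgene lines stayed out of the fits and library sizes. Printed CPM used TMM factors over all 84 libraries, and the CPM of the MLL-ENL fusion line used none. The fits were tested on simulated data.

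The alternatives tried were DESeq2 1.42.0, RLE scaling, testing without the filter, the 2 groups alone, all 84 libraries in 1 fit, pooled 10 week controls, each library left out, both libraries labelled 73 left out, and the replicate number as a block. At 10 weeks the populations share identifiers, taken as those of animals, so the population steps are paired, and every pair's deviations correlated (r from 0.17 to 0.34). Unless another fit is named, p-values printed for these steps come from the fit of 1 mean per group, which ignored the pairing. At P0 the genotypes share replicate numbers. Every pair correlated between genotypes in pGM and GMP (r from 0.16 to 0.52) and between control pGM and GMP (0.17 to 0.33), but not between genotypes in HPC (lowest r 0.07) or between control HPC and pGM (0.07 to 0.32). Named genes were the 6 members, up to 3 genes per list and genotype comparison by smallest p, the 3 genes most correlated with each member (1 is not reported here), and the 2 nearest protein-coding genes on each side. Relatives of a member and hepatocyte markers given without a call, and list genes given in control comparisons, were chosen after their values were seen. Positions are from GENCODE vM21 (GRCm38), matched by Ensembl ID, and promoters from RefSeq (GRCm38.p6), matched by symbol for 6 of 6 members. Figures used matplotlib 3.10.9.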

Additional observations from a re-analysis of the deposited data

Results flagged for a closer look

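In groups of 4 libraries a value was marked where its gap to the nearest other, divided by the group's range, exceeded Dixon's critical value at 95%. Of 106 combinations of a member and a group tested 11 were marked, and 5.3 are expected by chance at 1 in 20. The same libraries recur for each member, so these tests are not independent. The library labelled 73 pGM had 76.6 CPM of Slc16a11 (others 13.5 to 18.2) and 10.2 CPM of Chga (others 1.99 to 2.12). The GMP library labelled 73 had 1.16 CPM of Slc16a11 (others 0 to 0.177) and 6.27 CPM of Ehd3 (others 3.15 to 3.54). GMP library 74 had 0.265 CPM of Chga, where the others had 0.

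Among controls, 10 week library 76 had 3.06 CPM of Pcdh7 in pGM (others 2.44 to 2.48) and 0.553 CPM of Slc16a11 in GMP (others 0 to 0.0828). Control 87 had 5.63 CPM of Ehd3 in 10 week HPC (others 3.05 to 3.40). Chga had 0.0892 CPM in P0 GMP control 3 and 0.0988 CPM in GMP control 4894 of the x2 set, where the other libraries had 0. Where the other 3 libraries are at 0 any read is marked, so the 3 values of Chga in GMP, which rest on 1 to 3 reads, were fixed in advance. In 6 month MLL-ENL HPC library 1704 had 86.1 CPM of Hnf4a (others 62.4 to 64.0).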

How the results depend on the processing

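With 1 library left out 150 counts of members stayed within 1.5 times the reported count and 11 were lower, and under the other alternatives 115 stayed, 4 were higher and 3 lower. No value of a member called in the reported fit changed direction under the alternatives run. With 1 library left out the count ranged from 2 to 5 in P0 pGM (2 without control 3, 3 without control 2), from 1 to 2 in 10 week HPC (1 without control 76, 80 or 88 or MLL-ENL 81), from 1 to 3 in 10 week pGM (1 without control 80 or 88 or MLL-ENL 73), and from 1 to 2 at both P0 control steps (1 without pGM control 3 from HPC to pGM, 1 without pGM control 2 from pGM to GMP). With the 2 groups alone 1 member was called in 10 week HPC and 0 in 10 week pGM. With pooled 10 week controls 5 were called in pGM and 2 in GMP. Without both libraries labelled 73 the pGM count was 1. DESeq2 called 1 member from 6 to 12 months. The cause of these changes was not tested.

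With the replicate block 4 members were called from HPC to pGM in 10 week controls. In P0 HPC, where the numbers did not pair the libraries, the block called 6 (Ehd3 at 1.62), as did DESeq2. The choice of members used this comparison, so nothing is read from that count. The block left out Chga from pGM to GMP at 10 weeks, which did not pass the filter there, and changed no other count. RLE scaling moved the median of all genes by at most 0.05. The depth limits Chga and Slc16a11 in GMP, where groups held few reads.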
